A study of Mus musculus with 19 samples.

Results

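Mitochondrial ribosomal protein genes, which encode the proteins of the ribosome inside mitochondria, were followed in cultured islets of the mouse strains C57BL6/J (B6) and C57BLKS/J (BLKS). The members were all non-control probes of the array whose gene name starts with Mrpl or Mrps and a digit, Mrpl for the large and Mrps for the small subunit. The rule found 116 of 41174 probes, for 73 of 29742 gene names, 44 with Mrpl and 29 with Mrps names. Of these probes, 114 passed the filter on dim signals and 112 were well above background in all 19 mice, and every member gene kept at least 1 tested probe.

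The mitochondrial ribosome translates the few messenger RNAs of the mitochondrial genome, which encode subunits of the respiratory chain and of ATP synthase. Its proteins are encoded in the nucleus, made in the cytosol and imported. Some have counterparts in bacterial ribosomes and others are particular to mitochondria. In beta cells, respiration couples glucose to insulin release, and the mitochondrial ribosome is needed for the respiratory chain to be built.

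Islets of 12-week-old animals were kept separate by mouse, cultured for 48 h in 11 mM glucose and then for 24 h in either 5 mM (low) or 20 mM (high) glucose. The groups were B6 in low glucose (n = 5), BLKS in low glucose (n = 5), B6 in high glucose (n = 5) and BLKS in high glucose (n = 4). RNA of each mouse was amplified, labelled with each of 2 dyes and hybridised to Agilent whole mouse genome arrays, a B6 and a BLKS sample mostly sharing an array in one glucose. BLKS is an inbred strain of mostly B6 genome with segments of DBA origin, and the labels name no transgene or engineered allele in either strain.

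Values are log2 intensities per mouse, averaged over dyes and scaled between arrays, and differences between groups are in log2 units. Intensities of different probes were not compared, since each probe binds differently. A probe was called higher or lower where the adjusted p of limma, fitted over all 29332 tested probes, was under 0.05. Signals of islet RNA do not tell fewer cells of a type from less RNA per cell.

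Along 106 probes that separate the strains in high glucose, 2 low glucose libraries went against their labels. The library labelled B6 low glucose replicate 4 lay at 0.99 and that labelled BLKS low glucose replicate 5 at -0.01, where 0 is the B6 and 1 the BLKS position. The labels were kept. Main counts and named changes that rest on low glucose are mostly given with and without both libraries, and the rest with all mice only.

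High glucose was compared with low glucose to ask which genes respond to glucose in each strain. Over both strains, 44 of 114 member probes rose and 6 fell. Of all tested probes, 10.9% rose and 11.4% fell, against 38.6% and 5.26% of the member probes. The changes were small, with a median of 0.06 for the member probes, a 1.04-fold change, beside -0.004 for all tested probes. The values ran from -0.30 to 0.36, and 88 of the 114 were above 0.

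By gene, 35 of the 73 had at least 1 probe that rose and 4 had a probe that fell, with none in both sets. Such counts favour genes with several probes, and no share over all genes is given beside them. By the brightest probe of each gene alone, 31 rose and 3 fell. Without both libraries that went against their labels, 37 probes rose and 5 fell, with a median of 0.06, when 10.7% of all probes rose and 11.1% fell. The split depended on scaling and on the shared arrays. With no scaling between arrays 15 rose and 9 fell, when 4.81% of all probes rose and 12.9% fell, and the members' median was 0.02, beside -0.02 for all probes. In the authors' log2 table, which is not scaled, 8 rose, beside 3.73% of all probes, and 7 fell, beside 7.81%, with a median of 0.02, against -0.017 for all probes. With a random block for shared arrays 23 rose, beside 7.01% of all probes, and 5 fell, beside 6%.

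**Figure D1:**
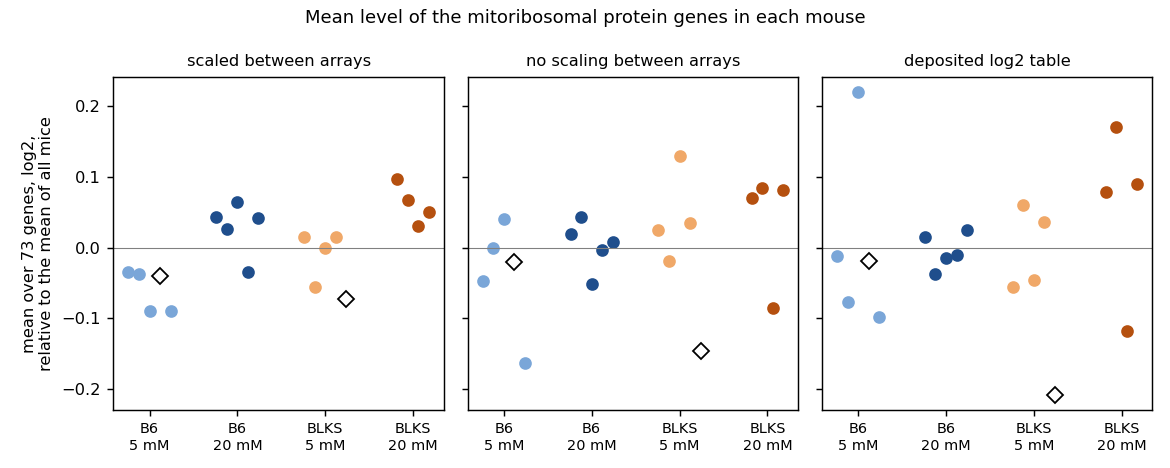
Mean log2 level of the 73 genes (brightest probe of each) in each mouse, relative to the mean of all 19 mice, with Aquantile scaling between arrays, without scaling and in the deposited table. Points are mice and open diamonds the 2 libraries that went against their labels. With Aquantile scaling, high glucose mice lay above low glucose mice of the same strain, in B6 only just (-0.034 against -0.035), whereas without scaling and in the deposited table the groups overlapped.

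The mean over the brightest probe of each of the 73 genes shows the same dependence. With Aquantile scaling, the B6 mice ran from -0.090 to -0.035 in low glucose and from -0.034 to 0.065 in high glucose. The BLKS mice ran from -0.073 to 0.015 in low and from 0.030 to 0.097 in high glucose. Within each strain the groups did not overlap, though in B6 they nearly touched. With quantile normalization instead, the B6 groups overlapped, with low glucose mice up to -0.034 and a high glucose mouse at -0.038, and the BLKS groups did not, at up to 0.019 and from 0.030. With no scaling, the B6 mice ran from -0.163 to 0.041 in low and -0.051 to 0.043 in high glucose, and the BLKS mice from -0.146 to 0.130 and -0.086 to 0.085, so that both pairs of groups overlapped.

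The calls were also counted by subunit name, beside 10.9% of all probes that rose and 11.4% that fell. Of 68 tested Mrpl probes, 32 rose and 1 fell, or 47.1% and 1.47%, with a median of 0.09. Of 46 tested Mrps probes, 12 rose and 5 fell, or 26.1% and 10.9%, with a median of 0.05. Without both libraries 42.6% of Mrpl probes rose and 1.47% fell, and 17.4% and 8.7% of Mrps probes did. Of all probes 10.7% and 11.1% then did. With no scaling between arrays 12 Mrpl probes rose and 3 fell, or 17.6% and 4.41% of them. In that setting 3 Mrps probes rose and 6 fell, or 6.52% and 13%, beside 4.81% and 12.9% of all probes. The Mrps median was then -0.007, below 0 and above the median of all probes, which was -0.02 without scaling. The difference between the subunits was not tested.

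Among large subunit genes with a bacterial counterpart, 14 of 28 had a probe that rose. They were Mrpl4, Mrpl10, Mrpl12, Mrpl13, Mrpl15, Mrpl17, Mrpl18, Mrpl20, Mrpl27, Mrpl28, Mrpl33, Mrpl34, Mrpl35 and Mrpl47. Mrpl10 and Mrpl12 encode proteins of the stalk that recruits translation factors, and Mrpl4 a protein that lines the exit tunnel. Of the 16 large subunit genes particular to mitochondria, 10 had a probe that rose: Mrpl38, Mrpl39, Mrpl40, Mrpl43, Mrpl46, Mrpl49, Mrpl50, Mrpl51, Mrpl53 and Mrpl54. The genes of this class showed none that fell. By the brightest probe alone, 12 of the 28 and 9 of the 16 rose, where 10.9% of all probes did. Without both libraries 11 and 7 did, where 10.7% of all probes did.

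Of 18 small subunit genes with a bacterial counterpart, 8 had a probe that rose, namely Mrps7, Mrps11, Mrps12, Mrps15, Mrps17, Mrps18b, Mrps21 and Mrps24. Mrps12 encodes a protein of the decoding centre. Of 11 small subunit genes particular to mitochondria, 3 had a probe that rose, Mrps30, Mrps34 and Mrps36. By the brightest probe alone, 7 of the 18 and 3 of the 11 rose, where 10.9% of all probes did. Without both libraries 4 and 2 did, where 10.7% of all probes did. Despite their names, the Mrps30 protein sits in the large subunit and the Mrps36 protein is now placed in the oxoglutarate dehydrogenase complex. The genes with a probe that fell were Mrpl3, Mrps2, Mrps9 and Mrps33.

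The DNA before the start sites of members with large changes is shown because many members moved together with glucose. The sequences are those of RefSeq on GRCm38.p6, the 250 bases before the start site, which were given for 64 of the 73 member genes. Capitals mark matches, on either strand, to 4 motifs: CCGGAAG for ETS factors such as GABP, CACGTG for E-box factors, AAGATGG for YY1 and CATGCGC, a part of the NRF-1 site, none of which contains another.
Mrps12, chr7:28741822-28742071, minus strand: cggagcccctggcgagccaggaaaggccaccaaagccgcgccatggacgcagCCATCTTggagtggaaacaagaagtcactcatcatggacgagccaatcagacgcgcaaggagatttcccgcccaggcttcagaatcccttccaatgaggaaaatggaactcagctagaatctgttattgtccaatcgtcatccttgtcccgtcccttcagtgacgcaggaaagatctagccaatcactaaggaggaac
Mrpl17, chr7:105811088-105811337, minus strand: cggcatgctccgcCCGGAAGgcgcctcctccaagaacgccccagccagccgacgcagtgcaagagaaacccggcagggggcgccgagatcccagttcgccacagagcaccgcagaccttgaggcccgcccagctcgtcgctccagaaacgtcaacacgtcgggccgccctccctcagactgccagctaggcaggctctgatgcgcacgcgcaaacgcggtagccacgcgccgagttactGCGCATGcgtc
Mrpl50, chr4:49521084-49521333, minus strand: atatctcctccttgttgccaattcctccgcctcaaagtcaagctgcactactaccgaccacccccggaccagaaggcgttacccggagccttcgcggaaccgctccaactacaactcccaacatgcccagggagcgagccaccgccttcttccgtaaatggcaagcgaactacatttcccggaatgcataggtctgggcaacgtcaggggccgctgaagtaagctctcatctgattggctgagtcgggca
Mrps33, chr6:39810937-39811186, minus strand: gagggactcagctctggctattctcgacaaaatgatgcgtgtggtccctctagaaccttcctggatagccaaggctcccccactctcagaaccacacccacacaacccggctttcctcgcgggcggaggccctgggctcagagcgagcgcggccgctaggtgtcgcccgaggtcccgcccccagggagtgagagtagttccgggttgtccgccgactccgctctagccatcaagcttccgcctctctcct

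Of these windows, that of Mrps12 held 1 match, to the YY1 motif read on the other strand, and that of Mrpl17 held 2, to the ETS and NRF-1 motifs. The windows of Mrpl50 and Mrps33 held none. Over the 64 member genes, 26.6% had the ETS motif, 12.5% the NRF-1, 9.38% the YY1 and 7.81% the E-box motif. Over the 27025 genes with such a window the shares were 7.83%, 3.68%, 5.18% and 6.86%. Among member genes with a window, 29 had a probe that rose with glucose. Of these, 24.1% had the ETS, 17.2% the NRF-1, 10.3% the YY1 and 3.45% the E-box motif. Of the other 35 the shares were 28.6%, 8.57%, 8.57% and 11.4%, and no difference was tested. These matches are a description of letters in the windows, and the NRF-1 letters were shortened after a longer form of that motif had been searched in the same windows.

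**Figure D2:**
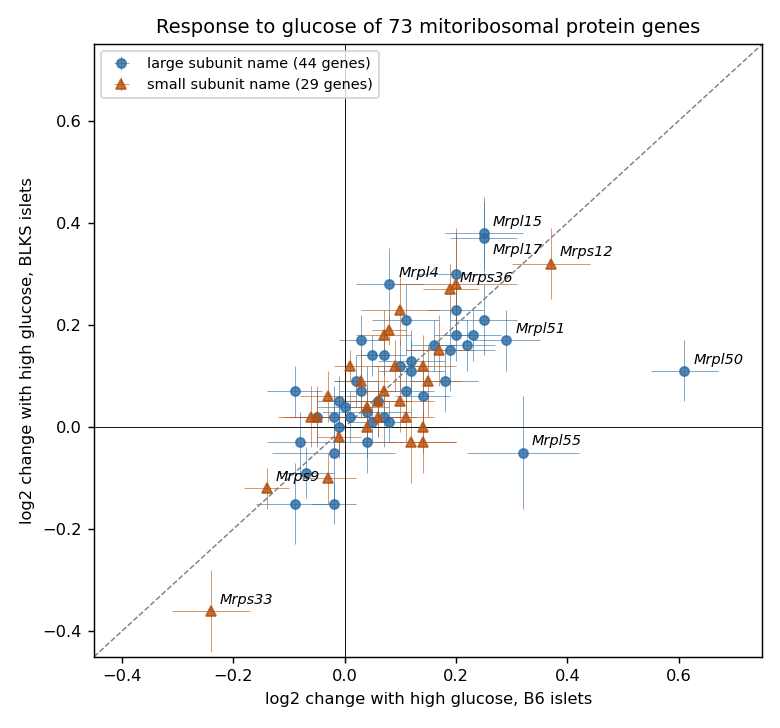
Log2 change with high glucose in B6 (horizontal axis) and BLKS islets (vertical axis) for the brightest probe of each of 73 genes. Circles are Mrpl and triangles Mrps genes, bars are standard errors and the dashed line marks equal changes. Most genes lay above 0 in both strains, with Mrpl50 at 0.61 in B6 and 0.11 in BLKS, and Mrps33 at -0.24 and -0.36.

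In B6 islets alone, 17 member probes rose and 2 fell, with 5.43% of all probes called higher and 4.06% lower. In BLKS islets, 28 rose and 4 fell, with 6.53% of all probes higher and 5.06% lower. The members' medians were 0.06 in B6 and 0.07 in BLKS. Without both libraries 22 rose in B6, beside 6.6% of all probes, and 19 in BLKS, beside 5.57%. With no scaling 4 rose and 4 fell in B6, or 3.51% each, when 1.9% of all probes rose and 3.57% fell. In BLKS 3 then rose and 4 fell, or 2.63% and 3.51%, when 2.3% and 5.03% of all probes did. The deposited log2 values called 1 higher and 2 lower in B6, beside 0.92% and 3.21% of all probes, with a median of -0.036 against -0.047 for all probes. In BLKS they called 3 higher and 1 lower, beside 2.17% and 1.23%, with a median of 0.08 against 0.01. Single mice moved these counts: 12 probes were called in B6 without low glucose replicate 3, against 19, and 17 in BLKS without high glucose replicate 2, or 21 without low glucose replicate 1 or 2, against 32.

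Both strains called 14 of the member probes, of 12 genes, with 13 higher and 1 lower in both, or 11.4% and 0.877% of the 114. Of all tested probes, 3.44% were called higher and 2.27% lower in both strains. The sign was the same in both strains for 82.5% of the member probes and 76.7% of all probes. Over the brightest probes of the 73 genes, the B6 and BLKS changes correlated with Pearson r = 0.635 and Spearman rho = 0.647, and 60 had the same sign. Without both libraries Pearson r was 0.663. These mice differ, but B6 and BLKS samples shared arrays, and genes are not independent replicates, so this is a description.

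Mrps12 rose in both strains. In B6 its values were 11.33, 11.33, 11.23, 11.50 and 11.27 in low glucose and 11.69, 11.79, 11.68, 11.52 and 11.83 in high glucose. In BLKS they were 11.64, 11.59, 11.68, 11.71 and 11.45 in low and 11.98, 12.12, 11.76 and 11.88 in high glucose. All high glucose mice lay above all low glucose mice of their strain, the nearest gap in B6 being to the doubted replicate 4 at 11.50. The change over both strains was 0.35 ± 0.05 (SE; adjusted p = 8.15e-05 by limma), a 1.27-fold rise, and it was called in all 19 fits that left out 1 mouse. In each strain the exact permutation test gave two-sided p = 0.00794, the smallest it can give with these numbers.

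Mrpl17 and Mrpl15, large subunit proteins with bacterial counterparts, also rose in both strains. Mrpl17 ran from 9.99 to 10.15 in B6 low glucose and from 10.18 to 10.43 in B6 high glucose, and from 9.99 to 10.31 and 10.42 to 10.71 in BLKS. Neither strain's groups overlapped. The rise was 0.25 ± 0.06 in B6 (adjusted p = 0.017 by limma) and 0.37 ± 0.07 in BLKS (adjusted p = 0.00117). Without both libraries it was 0.27 in B6 and 0.33 in BLKS (adjusted p = 0.00685 and 0.00295).

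Mrpl15 had 2 tested probes. The first rose by 0.25 ± 0.07 in B6 (adjusted p = 0.0229 by limma) and by 0.38 ± 0.07 in BLKS (adjusted p = 0.00161). The second rose in BLKS, by 0.26 ± 0.08 (adjusted p = 0.0369), and had a value of 0.06 ± 0.07 in B6 (adjusted p = 0.708). Without both libraries the first had 0.30 in B6 and 0.33 in BLKS (adjusted p = 0.000887 and 0.000995). The second was then not called in BLKS (0.19, adjusted p = 0.0713).

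In BLKS, Mrpl34, Mrps36 and Mrpl4 also rose, and were named for the size of that rise. Mrpl34 rose by 0.30 ± 0.08 (adjusted p = 0.0138 by limma), although its groups overlapped, with low glucose mice up to 9.51 and a high glucose mouse at 9.46. The brighter probe of Mrps36 rose by 0.27 ± 0.05 (adjusted p = 0.000979), from 8.90 to 9.11 in low glucose up to 9.19 to 9.38 in high glucose. Its other probe had 0.14 ± 0.05 and was not called (adjusted p = 0.0585). Mrpl4 rose by 0.28 ± 0.07 (adjusted p = 0.0116). Without both libraries the BLKS rises of Mrpl34, Mrps36 and Mrpl4 were 0.28, 0.24 and 0.24 (adjusted p = 0.0379, 0.00255 and 0.0349). In B6, Mrpl51 rose by 0.29 ± 0.06 (adjusted p = 0.00418), with high glucose replicate 4 at 10.90 beside 11.11 to 11.17 in the other high glucose mice. Without both libraries the Mrpl51 rise was 0.29 (adjusted p = 0.00632). None of these genes was called for the response difference. In B6, Mrpl34 ran from 9.26 to 9.48 in low and from 9.44 to 9.74 in high glucose. Mrpl4 ran there from 8.73 to 8.96 and from 8.82 to 9.05. The brighter Mrps36 probe ran from 8.91 to 9.05 and from 9.11 to 9.27 in B6, with no overlap. Mrpl51 ran from 10.82 to 10.98 in low and from 10.91 to 11.22 in high glucose in BLKS.

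Mrps33, a small subunit protein particular to mitochondria, fell on each of its 3 probes. The brightest read 11.59, 11.73, 11.63, 11.42 and 11.69 in B6 low glucose and 11.51, 11.35, 11.44, 11.26 and 11.29 in B6 high glucose. In BLKS it read 11.54, 11.45, 11.41, 11.45 and 11.69 in low and 11.29, 10.96, 11.25 and 11.09 in high glucose. The BLKS groups did not overlap. The B6 groups overlapped only through the doubted replicate 4, the lowest of the low glucose mice.

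Over both strains the 3 Mrps33 probes changed by -0.30 ± 0.05, -0.18 ± 0.03 and -0.19 ± 0.04 (adjusted p = 0.000358, 0.00044 and 0.00373 by limma), and each was called with any 1 mouse left out. In B6 only the brightest passed (adjusted p = 0.0378, against 0.0507 and 0.0935). Without both libraries all 3 passed in B6 (adjusted p = 0.00539, 0.0126 and 0.00163). They also stayed below 0 and called with no scaling between arrays, at -0.28, -0.24 and -0.22.

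The other falls were smaller. Mrps9 fell on 1 of 2 probes, by 0.13 on the log2 scale over both strains (adjusted p = 0.00185 by limma). Mrps2 fell on 1 of 3 probes (-0.18 ± 0.05, adjusted p = 0.0224) while its brightest probe had 0.04 ± 0.03 (adjusted p = 0.353). Mrpl3, whose bacterial counterpart lies near the peptidyl transferase centre, fell on 1 of 3 probes (-0.09 ± 0.03, adjusted p = 0.0267). Without both libraries the call for Mrps2 was lost (adjusted p = 0.0536).

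Of 29 genes with more than 1 tested probe, 23 had the same sign on all of them for glucose over both strains. Mrps2, Mrpl28 and Mrpl47 each had a called probe and a probe of the opposite sign, and these last 2 were picked out after their values were seen. Mrpl47 read 0.12 (adjusted p = 0.00847 by limma) on one probe and -0.12 (adjusted p = 0.119) on its brightest.

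**Figure D3:**
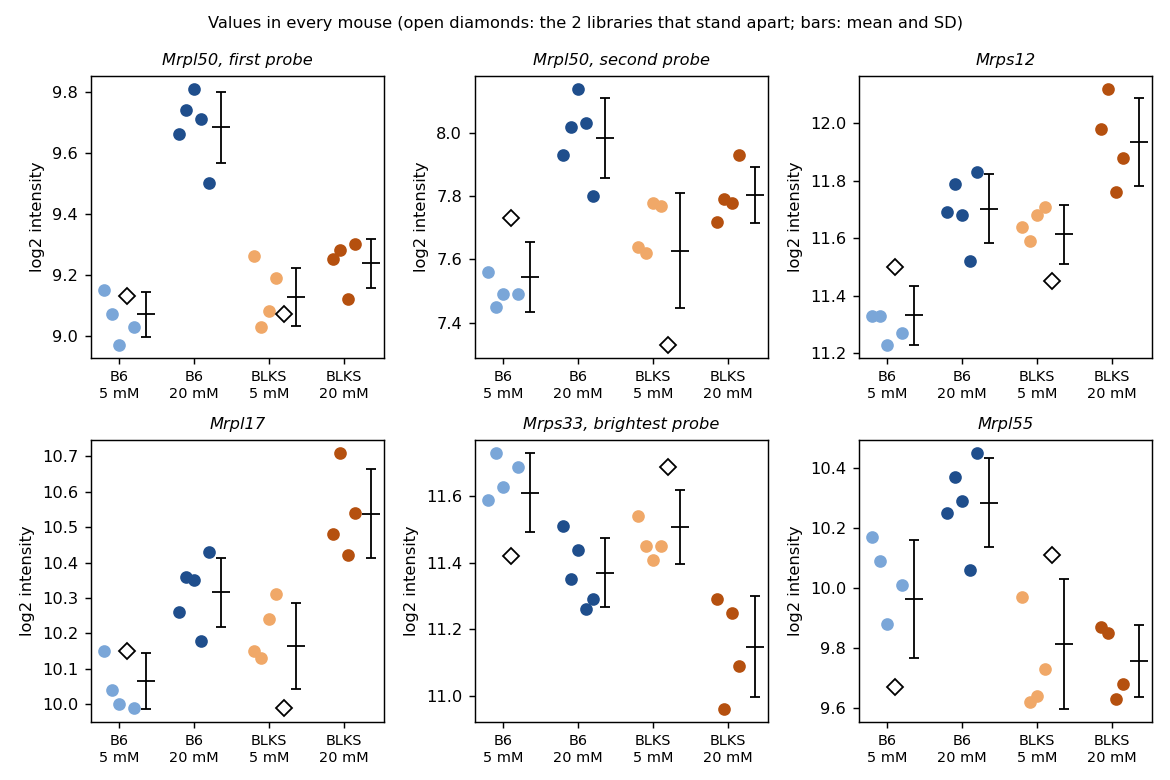
Log2 intensity in every mouse of 6 probes, by strain and glucose. Points are mice, open diamonds the 2 libraries that went against their labels, and bars the mean and SD. Mrpl50 stands apart in B6 high glucose on its first probe (9.50 to 9.81), Mrps12 and Mrpl17 rise with glucose in both strains, Mrps33 falls, and Mrpl55 is lower in BLKS than B6 in high glucose.

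Mrpl50, a large subunit protein particular to mitochondria, was the member whose response differed between the strains. Its brightest probe read 9.15, 9.07, 8.97, 9.13 and 9.03 in B6 low glucose and 9.66, 9.74, 9.81, 9.71 and 9.50 in B6 high glucose. In BLKS it read 9.26, 9.03, 9.08, 9.19 and 9.07 in low and 9.25, 9.28, 9.12 and 9.30 in high glucose. Every B6 high glucose mouse lay above every other mouse, and the other 3 groups overlapped one another.

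The rise in B6 was 0.61 ± 0.06 (adjusted p = 5.3e-06 by limma), a 1.53-fold change, and the value in BLKS was 0.11 ± 0.06 (adjusted p = 0.274). The responses differed by -0.50 ± 0.09, BLKS minus B6 (adjusted p = 0.0379 by limma), and this was the only member called, with 0.0409% of all probes called in either direction. With a random block for shared arrays the difference was -0.53 ± 0.06 (adjusted p = 0.000409). Without both libraries the rise in B6 was 0.63 (adjusted p = 8.01e-06) and the value in BLKS 0.10 (adjusted p = 0.428). The difference was then -0.53 (adjusted p = 0.0398). The call was near the threshold: it held in 1 of 19 fits that left out 1 mouse, where the difference ran from -0.55 to -0.46, and was lost with no scaling (-0.51, adjusted p = 0.208) and in the deposited table (-0.38, adjusted p = 1).

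The second Mrpl50 probe read 7.56, 7.45, 7.49, 7.73 and 7.49 in B6 low and 7.93, 8.02, 8.14, 8.03 and 7.80 in B6 high glucose. In BLKS it ran from 7.33 to 7.78 in low and from 7.72 to 7.93 in high glucose. It rose in B6, by 0.44 ± 0.08 (adjusted p = 0.00131 by limma), and had 0.18 ± 0.08 in BLKS (adjusted p = 0.197). Its response difference was -0.26 ± 0.11 (adjusted p = 1), of the same sign as that of the first probe and not called. Without both libraries that difference was -0.38 (adjusted p = 0.166).

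The strains were compared in each glucose to ask where their islets differ. In high glucose, 9 member probes were higher and 4 lower in BLKS, or 7.89% and 3.51%, and of all probes 4.99% were higher and 6.12% lower. The members' median was 0.03, beside 0.007 for all probes. The count changed with the mice: 13 probes were called in all, and 4 to 7 were called without B6 high glucose replicate 1, 2 or 4 or BLKS high glucose replicate 2 or 4 in turn. With a random block for shared arrays 25 were higher and 8 lower, when 12.3% and 12.9% of all probes were.

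Mrpl55, a large subunit protein particular to mitochondria, had the largest strain difference of the members. It read 10.25, 10.37, 10.29, 10.06 and 10.45 in B6 high glucose and 9.87, 9.85, 9.63 and 9.68 in BLKS high glucose, with no overlap. BLKS was lower by 0.53, a 1.44-fold difference (log2 difference -0.53 ± 0.11, adjusted p = 0.00684 by limma), and the call held with any 1 mouse left out. In low glucose it read 10.17, 10.09, 9.88, 9.67 and 10.01 in B6 and 9.97, 9.62, 9.64, 9.73 and 10.11 in BLKS. The value of 9.67 was that of the doubted B6 replicate 4 and the value of 10.11 that of the doubted BLKS replicate 5. The low glucose difference was -0.15 ± 0.10 (adjusted p = 0.548) with them and -0.30 (adjusted p = 0.0327) without them.

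Mrpl50 was lower in BLKS in high glucose on its first probe (-0.44 ± 0.06, adjusted p = 0.000638 by limma), a comparison that uses the same B6 high glucose mice as its response in B6. The second probe had -0.18 ± 0.08 (adjusted p = 0.2). In low glucose the first probe had 0.06 ± 0.06 (adjusted p = 0.747) and the second 0.08 ± 0.08 (adjusted p = 0.722). Without both libraries the first had 0.09 (adjusted p = 0.493). The second was then called higher in BLKS, at 0.20 (adjusted p = 0.0358).

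Mrps33 was lower in BLKS in high glucose on 2 of its 3 probes (-0.20 ± 0.05 and -0.21 ± 0.06, adjusted p = 0.00986 and 0.0452 by limma), and the third had -0.22 ± 0.08 (adjusted p = 0.0679). In low glucose the same 2 probes had -0.12 and -0.16 (adjusted p = 0.179 and 0.202), and -0.17 and -0.26 (adjusted p = 0.0144 and 0.000593) without both libraries.

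Of member probes called higher in BLKS in high glucose, 1 of Mrpl15 led with 0.27 ± 0.07 (adjusted p = 0.0192 by limma). Mrpl17 followed with 0.22 ± 0.07 (adjusted p = 0.0402), its groups overlapping, and Mrpl2 with 0.19 ± 0.05 (adjusted p = 0.0239). Mrpl2 encodes a core protein of the large subunit near the peptidyl transferase centre. That Mrpl15 probe read 7.43 to 7.60 in B6 and 7.70 to 7.88 in BLKS, with no overlap. The other Mrpl15 probe had 0.21 ± 0.08 and was not called (adjusted p = 0.0954), and its groups overlapped. Mrpl2 read 8.13 to 8.18 in 4 B6 mice and 8.34 in the other, and 8.28 to 8.46 in BLKS. Mrps26, Mrpl28 and Mrpl10 followed with 0.15, 0.15 and 0.13. The other probes of Mrps26 and Mrpl28 had 0.14 and 0.11 and were not called (adjusted p = 0.0907 and 0.277). Of 19 fits that left out 1 mouse, Mrpl15 was called in 18, Mrpl17 in 12 and Mrpl2 in 14. Mrps26 was called in 6, Mrpl28 in 13 and Mrpl10 in 14.

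In low glucose 0 of 114 member probes and 0 of 29332 probes were called by limma with all mice, a share of 0%. At an unadjusted p under 0.05 there were 13 member probes, or 11.4%, and the share of all probes was larger, at 16.1%. A random block for shared arrays called 10 members higher and 2 lower in BLKS, when 6.76% and 9.3% of all probes were. Without both libraries 9 members were higher and 3 lower in BLKS, when 7.06% and 8.57% of all probes were. Mrps12 then had the largest difference, 0.36 (adjusted p = 0.00124), against 0.28 ± 0.07 with all mice (adjusted p = 0.124).

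Mrps14, a small subunit protein with a bacterial counterpart, was also named by its size in low glucose. It read 8.99, 9.20, 8.99, 9.19 and 8.97 in B6 and 9.30, 9.22, 9.31, 9.31 and 9.13 in BLKS. The difference was 0.18 ± 0.06 (adjusted p = 0.161 by limma), and 0.24 (adjusted p = 0.0105) without both libraries.

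**Figure D4:**
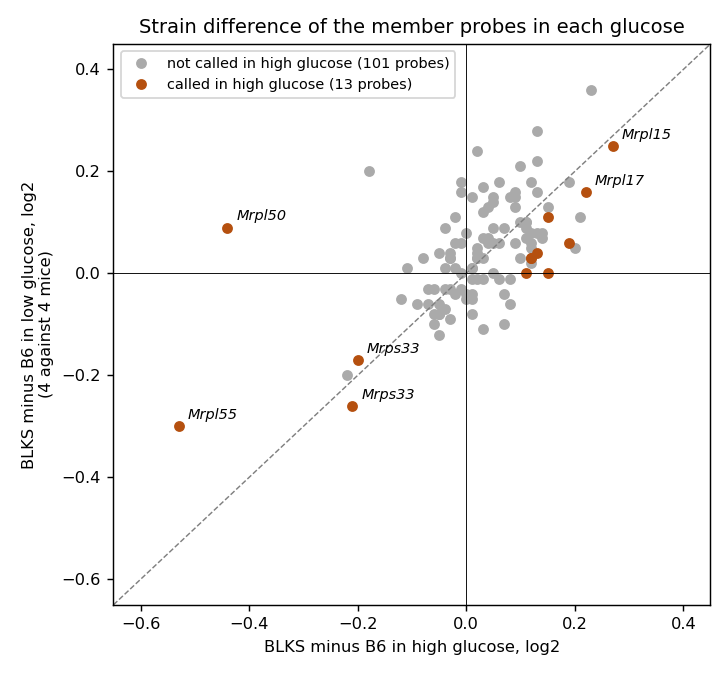
Strain difference (BLKS minus B6, log2) of the 114 tested member probes in high glucose (horizontal axis) and in low glucose without both doubted libraries (vertical axis). Each point is a probe, coloured where called in high glucose, and the dashed line marks equal differences. Mrps33 and Mrpl55 lay below 0 in both, while the first Mrpl50 probe was at -0.44 and 0.09.

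The strain comparisons in high and low glucose use different mice. Of the 13 member probes called in high glucose, 11 had the same sign in low glucose with all mice, or 84.6%. Without both libraries 12 did, or 92.3%, with Mrpl50 the exception. Of all 3257 probes called in high glucose, larger shares did, 95.6% with all mice and 96.5% without both libraries. Without both libraries 4 of the 13 were also called with the same sign in low glucose, or 30.8%. The share of the 3257 probes was then 61.7%.

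Other mitochondrial genes and those of the cytosolic ribosome were read beside the members for glucose over both strains. Of all probes, 10.9% rose and 11.4% fell. Of 113 tested probes for the respiratory chain and ATP synthase, 31 rose and 8 fell, with a median of 0.06. Of 46 probes for import and chaperones, 13 rose and 2 fell, with a median of 0.03. Among those that rose, Timm17b (0.23 ± 0.03, adjusted p = 2.24e-05 by limma) and Timm23 (0.17 ± 0.03, adjusted p = 0.00144) encode parts of the inner membrane channel. Of 132 probes for cytosolic ribosomal proteins, 18 rose and 18 fell, with a median of 0.003.

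The other steps of mitochondrial translation were covered by lists of 21 to 39 tested probes, whose counts stand beside the 10.9% of all probes that rose and the 11.4% that fell, and no difference between lists was tested. Assembly factors of the mitochondrial ribosome had 5 probes that rose and 3 that fell of 39. Translation factors had 1 and 2 of 21, the riser being Tufm, the elongation factor Tu of mitochondria (0.14 ± 0.04, adjusted p = 0.00725 by limma). Mitochondrial aminoacyl-tRNA synthetases had 2 and 2 of 22, with Nars2 at -0.32 ± 0.04 (adjusted p = 2.57e-05). Genes for the expression of mitochondrial DNA had 2 and 2 of 25, with Lrpprc, which stabilises mitochondrial messenger RNAs, at -0.20 ± 0.04 (adjusted p = 0.00258).

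The next counts, too, stand beside 10.9% of all probes that rose and 11.4% that fell. Regulators of mitochondrial biogenesis had 2 probes that rose and 3 that fell of 17. Pprc1, a coactivator of that programme, rose by 0.29 ± 0.03 (adjusted p = 4.02e-06 by limma), and 1 of 2 probes of Ppargc1a fell (-0.15 ± 0.03, adjusted p = 0.00444). Some mitochondrial ribosomal proteins stand on the array under other names. A list of 6 of them, Dap3, Chchd1, Aurkaip1, Ptcd3, Gadd45gip1 and Mrpl58, had 10 tested probes, of which 3 rose, 2 of Chchd1 and 1 of Mrpl58. RefSeq gives Mrpl or Mrps symbols to 8 probes that the array names otherwise, that of Mrpl58 among them, so that they are not members by the rule. Of 7 tested, 4 rose and 0 fell, namely Mrpl57 (0.22, adjusted p = 0.00108 by limma), Mrpl42 (0.13, adjusted p = 0.00681), Mrpl21 (0.14, adjusted p = 0.0175) and Mrpl58 (0.14, adjusted p = 0.0209). A second probe of Mrpl57 had 0.01 (adjusted p = 0.749) and one of Mrpl42 -0.14 (adjusted p = 0.321). The named genes of these lists were picked after their values were seen.

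**Figure D5:**
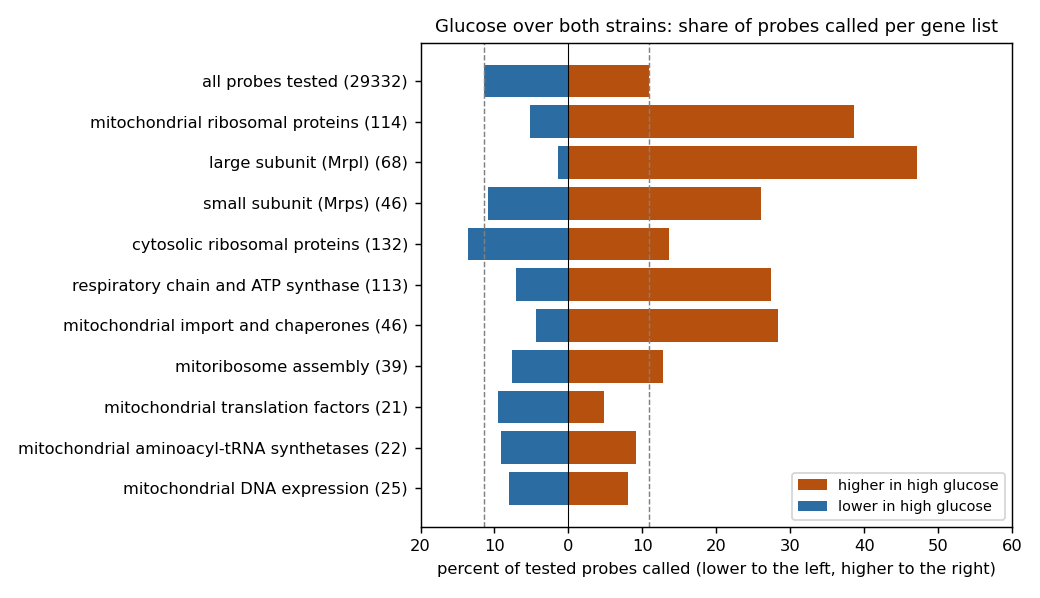
Percent of tested probes called higher (right) and lower (left) with high glucose over both strains, for the mitochondrial ribosomal proteins, their subunits and other gene lists, with the number of probes in brackets. Dashed lines mark the shares over all probes, 10.9% and 11.4%. The mitochondrial ribosomal proteins were called higher in 38.6%, the respiratory chain in 27.4% and the cytosolic ribosomal proteins in 13.6%.

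Markers of cell types also moved with the groups. The 14 islet endocrine genes summed to 18.95 to 19.25 (log2 of summed intensities) over all mice. Duct genes rose on 5 of 12 probes with glucose over both strains, and their sum ran from 14.73 to 15.49 in low and from 15.14 to 16.12 in high glucose. Endothelial genes fell on 6 of 14 and macrophage genes on 6 of 15 probes. In high glucose, fibroblast and stellate cell genes were lower in BLKS on 8 of 16 probes, with sums of 11.68 to 12.64 against 12.63 to 13.48 in B6. Duct sums there were 15.44 to 16.12 in BLKS against 15.14 to 15.30 in B6. Endothelial sums were 11.01 to 11.25 against 11.37 to 11.59, and macrophage sums 11.67 to 11.91 against 11.91 to 12.34. Acinar and endocrine sums overlapped between the strains. Acinar genes fell on 2 of 15 probes with glucose. Of all probes, 10.9% rose and 11.4% fell with glucose, and 6.12% were lower in BLKS in high glucose. Marker counts in the opposite directions are not given here. Their part in the results for the mitochondrial ribosomal proteins was not tested.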

How the data were processed

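Islet RNA of 19 mice was measured on 20 Agilent arrays of 2 colours. The authors deposited intensity values of Agilent Feature Extraction, in which both dyes of an array were normalized to each other by linear and LOWESS steps without subtracting background, as the file headers state. The submitters' processing notes name version 8.1, whereas the file headers name a different version. The deposited log2 table equals log2 mean signals averaged over dyes, with no scaling between arrays. The genome build is not given in the sources used here.

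Each mouse's processed signals were averaged over dyes and arrays after Aquantile scaling between arrays in limma 3.58.1 (R 4.3.3). Probes well above background in at least 4 mice were tested (29332 of 41174). A linear model of 4 group means with lmFit and eBayes gave each comparison, adjusted by the Benjamini-Hochberg method at 0.05. The model was also run on simulated data with independent noise and planted changes larger than any of the members. That run cannot show how it handles changes as small as those here or mice that share arrays. For named probes an exact two-sided permutation test over mice was run as well. With 5 mice against 5 or 4, its smallest p is 0.00794, and with 4 against 4 it is 0.0286. Array number limits precision.

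Labels show which B6 and BLKS samples of a glucose shared arrays. Over 9 such pairs, deviations from group means correlated at 0.0205 to 0.696, so array pairs were fitted as a block in alternatives.

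The named members were, in each comparison, up to 6 called probes with the largest change in each direction, or the 2 largest where none was called, with Mrpl50 and every tested probe of a named gene. The members and lists were chosen with earlier results of these data known. The other lists were matched through gene names, accessions and synonyms of RefSeq (GRCm38.p6), with all 116 member probes matched. Alternatives changed the background correction, scaling, filter, dye, block and mice. The methods' linear model with dye as a factor was run on single dye values, which treats values of 1 mouse as separate samples.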

Additional observations from a re-analysis of the deposited data

Results flagged for a closer look

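The response of Mrpl50 to glucose differed between the strains on its brightest probe, by -0.50 (BLKS minus B6, log2, adjusted p = 0.0379 by limma), with the limits given above.

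In groups of 4 or 5 mice, the named probes were searched for 1 mouse whose gap to the next was a large part of the group's range (Dixon's criterion at the 95% level). Such gaps were found in 7 of 120 groups, or 5.83%, and chance gives about 1 in 20. In B6 low glucose, the doubted replicate 4 was the low mouse for 2 Mrps33 probes, at 8.74 beside 8.87 to 8.90 and at 10.14 beside 10.39 to 10.48. In the same group, replicate 1 was low for Mrps2 (7.28 beside 7.53 to 7.61). In B6 high glucose, replicate 3 was high for Mrpl2 (8.34 beside 8.13 to 8.18), replicate 5 was high for Mrpl10 (8.99 beside 8.94 to 8.95), and replicate 4 was low for Mrpl51 (10.90 beside 11.11 to 11.17). In BLKS high glucose, replicate 2 was high for the second Mrps26 probe (10.07 beside 9.88 to 9.91).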

How the results depend on the processing

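Counts are of member probes called, with the main count in brackets. With no scaling between arrays they were 24 (50) for glucose over both strains, 8 (19) in B6, 7 (32) in BLKS, 3 (13) for strain in high glucose and 0 (1) for the response difference. In the deposited log2 table they were 15, 3, 4, 2 and 0. Cy5 values alone gave 32 for glucose over both strains, 12 in BLKS, 8 for strain in high glucose and 0 for the response difference, and Cy3 alone gave 3 for strain in low glucose (0). The replicate block with random array pairs gave 28 for glucose over both strains, 33 for strain in high and 12 for strain in low glucose. The replicate block with fixed array pairs gave 31 for strain in high and 5 for strain in low glucose. The pairing moved no other count of calls by over 1.5 times. The methods' linear model gave 39 for glucose in B6, 30 for strain in high and 16 for strain in low glucose, and 2 for the response difference; it counts the dye values of a mouse as separate samples, so its n is above the number of mice (median SE of the members for glucose in B6 0.039, against 0.051). Without both doubted libraries, strain in low glucose gave 12. Leaving out 1 mouse gave 41 to 50, 12 to 25, 17 to 32, 4 to 17, 0 to 4 and 0 to 1, in the order glucose over both strains, in B6, in BLKS, strain in high glucose, in low glucose and response difference.

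The other alternatives stayed within 1.5 times. Of 916 comparisons of named probes with an alternative other than leaving out 1 mouse, 776 kept direction and call, 77 lost the call, 57 gained it and 6 turned. The turned values, none called, were -0.04 with no scaling and -0.03 in the deposited table for the brightest Mrps2 probe, 0.00 without both libraries for another Mrps2 probe (0.00 to 0.01 with 1 mouse left out), -0.04 in the deposited table for the second Mrpl15 probe in B6, and -0.03 and -0.01 there for the Mrpl50 probes in low glucose. The causes were not tested. Signals of 2 member probes were too dim to test.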
